A study of Homo sapiens with 6 samples.

Results

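EEF1A2 and the other translation elongation factor genes were followed in MCF10A cells, a non-malignant breast epithelial line, after knockdown of DAB2IP, a RasGAP tumor suppressor. The genes were taken by name from the count table: EEF1A1, EEF1A2, EEF1B2, EEF1D, EEF1G, EEF1E1, EEF2 and EEF2K, which are 8 of its 58735 genes. RNA-Seq was performed on 6 libraries of total RNA: 3 siControl libraries, whose cells received a nontargeting pool of siRNA, and 3 siDAB2IP libraries, whose cells received siRNA to DAB2IP. Both groups were labelled with genotype WT, received the same serum-containing medium with insulin, epidermal growth factor, cholera toxin and hydrocortisone, and were collected 48 hours after transfection. The cells are 1 immortalized line, and the knockdown is transient.

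In elongation, EEF1A carries each aminoacyl-tRNA to the ribosome as a complex with GTP, the EEF1B subunits recharge EEF1A with GTP, and EEF2 moves the ribosome along the mRNA by a codon. EEF2K is the calcium- and calmodulin-dependent kinase that phosphorylates EEF2 and thereby slows elongation. EEF1A is encoded by a pair of genes: EEF1A1 is used in nearly all tissues, whereas EEF1A2 is known as the form of neurons and of heart and skeletal muscle, and its overexpression has been described in breast and ovarian tumors.

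EEF1A2 was the member that differed between the groups, with 4.95 ± 1.16 CPM (counts scaled to library size; SD, n = 3) in siControl and 42.0 ± 8.07 CPM in siDAB2IP cells, an 8.53-fold higher level. EEF1A1, the main form, measured 6183 ± 1051 CPM in siControl and 6376 ± 1099 CPM in siDAB2IP cells, and EEF2, EEF1B2, EEF1D and EEF2K also had overlapping groups. EEF1E1 was lower in every siDAB2IP library, by 0.37 on the log2 scale. The members were chosen by the known fold change of EEF1A2 in this contrast and by their role in elongation, so their values in it are given as a description, with no p.

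The libraries held 16353783 to 21916062 counts, and a count of 0 allows up to 3 counts, or 0.137 to 0.183 CPM, by counting error only. DAB2IP itself measured 91.6 ± 13.1 CPM in siControl and 25.1 ± 2.57 CPM in siDAB2IP cells. Of 15430 genes tested, 2192 passed an adjusted p of 0.05 in edgeR's quasi-likelihood test with Benjamini-Hochberg adjustment (14.2%), of which 1011 rose (6.55%) and 1181 fell (7.65%) in siDAB2IP cells. All 8 mammary epithelial markers were detected. Their summed level ranged from 8592 to 10595 CPM in siControl and from 5556 to 6843 CPM in siDAB2IP libraries, and of the 8, 3 fell and 0 rose: KRT14, KRT5 and KRT17 fell by 1.52, 0.97 and 0.54 on the log2 scale (adjusted p = 0.00577, 0.00223 and 0.0366). For TP63 the log2 fold change was −0.57 (adjusted p = 0.0615, with the block 0.00456 and in DESeq2 0.0195), for EPCAM it was −0.40, and for CDH1, EGFR and ITGB4 0.09, 0.03 and 0.12. Of the members, 7 of 8 passed the filter on low counts and entered that fit, and 1 of them, EEF1A2, was among its called genes. That count was set by the choice of members, and nothing is read from it. The groups did not overlap for 2 members, EEF1A2 and EEF1E1, beside 35.9% of all genes tested (17.6% with siDAB2IP higher and 18.3% with siDAB2IP lower).

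EEF1A1 and EEF1A2 encode near-identical proteins, so their coding sequences are shown for how far reads of EEF1A2 can be told apart from those of the far more abundant EEF1A1. The first 90 coding bases of each principal transcript (GENCODE release 29, ENST00000309268.10 and ENST00000217182.5) are shown 5′ to 3′, with the 17 differing bases in capitals.
EEF1A1: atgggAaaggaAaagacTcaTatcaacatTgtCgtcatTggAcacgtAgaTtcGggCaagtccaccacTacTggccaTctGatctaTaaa
EEF1A2: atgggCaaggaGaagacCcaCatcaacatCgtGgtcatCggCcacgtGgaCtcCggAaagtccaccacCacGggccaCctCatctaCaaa
Across the whole coding sequences, of 1386 bases in EEF1A1 and 1389 in EEF1A2, 303 aligned bases differed, and 252 of them (83.2%) lay at the third codon position, where most changes leave the amino acid unchanged. Nucleotide identity was 78.0%, and the longest identical run was 20 bases. Of the 1965 stretches of 50 bases in the EEF1A2 transcript, 0 occurred in the EEF1A1 transcript or in an EEF1A1 pseudogene. No EEF1A2 exon base overlapped another gene.

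EEF1A2 (ENSG00000101210) lies on chr20:63488012-63499322, minus strand, of GRCh38. The siControl libraries held 101, 92 and 73 counts of it, or 6.29, 4.27 and 4.29 CPM. The siDAB2IP libraries held 651, 687 and 885 counts, or 36.7, 38.0 and 51.3 CPM. Every siDAB2IP library was thus above every siControl library, and replicate 3 was the highest siDAB2IP library. The log2 fold change was 3.09 (SE 0.20, 95% interval 2.65 to 3.54), and the interval of the 8.53-fold difference ran from 6.26- to 11.6-fold. Within the replicate numbers shared by the groups, the log2 ratio was 2.54, 3.16 and 3.58. By log2 fold change EEF1A2 ranked second among the 15430 genes tested, and rank 1 among the 14075 with a mean of at least 1 CPM.

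**Figure D1:**
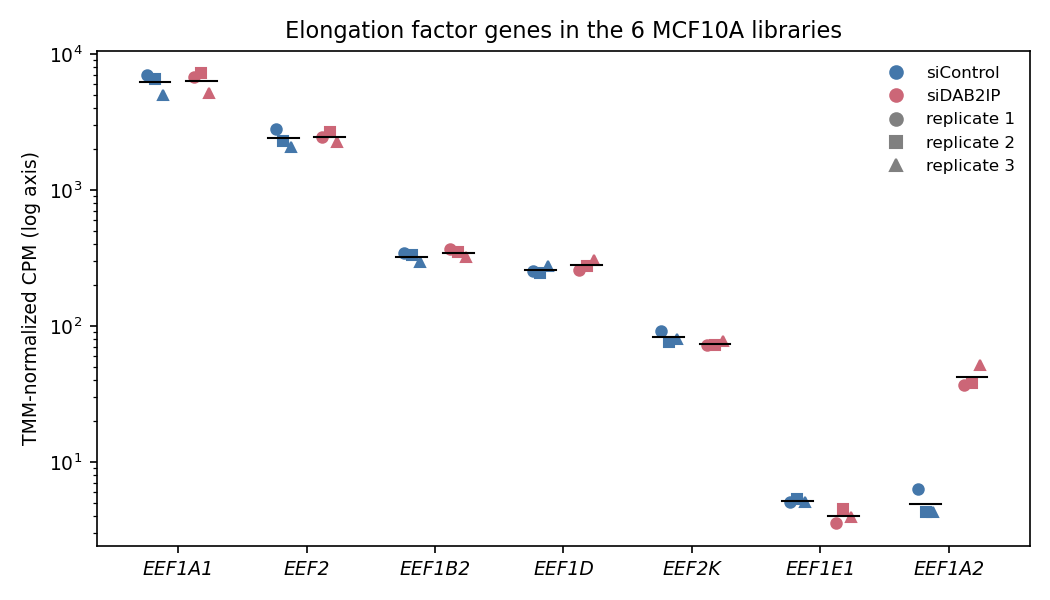
TMM-normalized CPM (log axis) of the 7 elongation factor genes with counts, in each siControl and siDAB2IP library, with the marker shape giving the replicate number and a black line the group mean. EEF1A2 moves from 4.27 to 6.29 CPM in siControl to 36.7 to 51.3 CPM in siDAB2IP libraries, while EEF1A1 stays between 5000 and 7227 CPM in all 6.

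Levels of different genes are compared here per length, as FPKM, fragments per kilobase of exon scaled to library size. The length is all annotated exon bases of a gene, 4910 for EEF1A2, whose principal transcript has 2014, so ranks between genes depend on it. EEF1A2 measured 0.999 ± 0.233 FPKM in siControl and 8.47 ± 1.61 FPKM in siDAB2IP cells. In siControl cells 22.1% of the genes tested lay below it, and in siDAB2IP cells 69.5% did. The gene was therefore near the low end of the tested genes in siControl cells and above the middle of them in siDAB2IP cells.

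EEF1A1 (ENSG00000156508; chr6:73515750-73523797, minus strand) was the most abundant member in every library. Its level was 7009, 6538 and 5000 CPM in the siControl libraries and 6765, 7227 and 5135 CPM in the siDAB2IP libraries. In both groups replicate 3 was the lowest, 0.44 below the mean of the other replicates on the log2 scale in siControl and 0.45 below it in siDAB2IP cells. The groups overlapped throughout. The log2 fold change was 0.04 (SE 0.18, 95% interval −0.36 to 0.45), and in a fit blocked on replicate number the interval narrowed to −0.23 to 0.32. These counts can be shared with copies of the gene: 56.2% of the 50-base stretches of the EEF1A1 transcript occurred in its annotated pseudogenes, and the 39 pseudogenes together held 0.910% to 1.04% as many counts as EEF1A1. EEF1A1P5, the most abundant of them, measured 45.3 ± 6.33 CPM in siControl and 44.4 ± 9.39 CPM in siDAB2IP cells. Of the 64 pseudogenes of all members, 7 were tested and 0 passed in edgeR, 0 at an unadjusted p under 0.05 and 0 in DESeq2.

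The share of EEF1A2 in the summed EEF1A level was 0.109%, 0.0791% and 0.104% in the siControl libraries. In the siDAB2IP libraries it was 0.653%, 0.634% and 1.20%. The mean share was 0.0971% ± 0.0158 and 0.828% ± 0.319 (SD, n = 3), and the lowest siDAB2IP share was above the highest siControl share. EEF1A1 nevertheless exceeded EEF1A2 by 130 ± 41.5-fold per length in siDAB2IP cells, compared with 1049 ± 187-fold in siControl cells. The EEF1A2 difference of 7.47 FPKM was small beside the summed level of both genes, 1031 ± 176 FPKM in siControl and 1069 ± 182 FPKM in siDAB2IP cells, which did not differ beyond its spread.

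**Figure D2:**
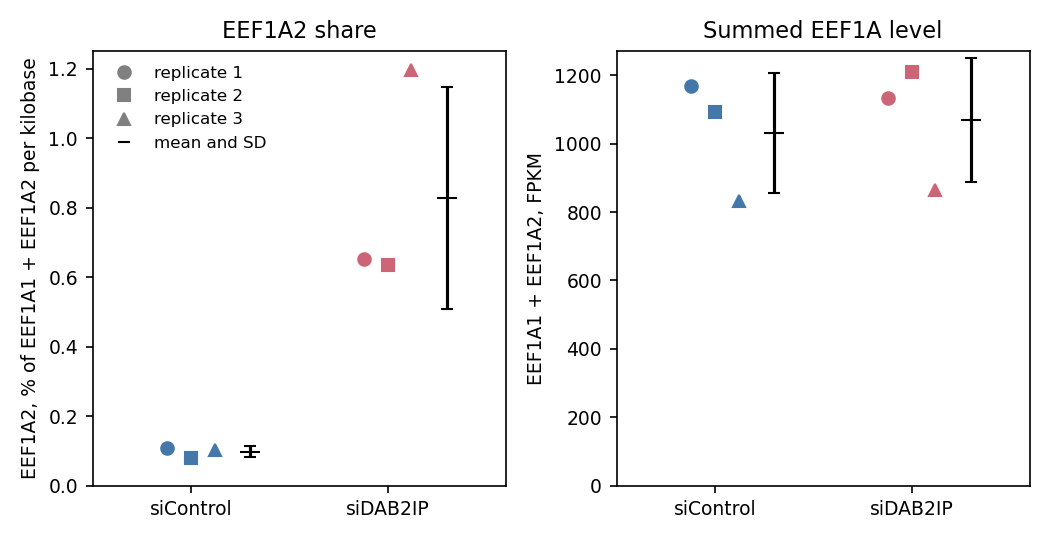
Left, EEF1A2 as a percentage of EEF1A1 plus EEF1A2 counts per kilobase in each library, and right, the summed FPKM of both genes, with the mean and SD of 3 libraries beside each group. The share rises from at most 0.109% in siControl to at least 0.634% in siDAB2IP libraries, while the sum spans 833 to 1167 FPKM and 863 to 1209 FPKM.

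EEF2, the translocase, and EEF1A1 shared a feature at the transcription start. The windows below, from RefSeq on GRCh38.p14, hold 10 bases before the start and 20 from it, on the strand of the gene, and the capitals mark the run of C and T that begins at the start site. A C at the start followed by a run of pyrimidines is the 5′ terminal oligopyrimidine motif, known from ribosomal protein and elongation factor mRNAs whose translation depends on mTOR.
EEF1A1, chr6:73521013-73521042, minus strand: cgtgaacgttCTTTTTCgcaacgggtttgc
EEF2, chr19:3985444-3985473, minus strand: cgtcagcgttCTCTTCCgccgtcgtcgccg
EEF1B2, chr2:206159599-206159628, plus strand: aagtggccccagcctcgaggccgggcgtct
The run was 7 bases long in EEF1A1 and EEF2. It was 0 in EEF1B2, shown as an example, and in EEF1G, EEF1E1 and EEF2K, where the annotated base at the start is neither C nor T. The count requires a C at that exact base, and in EEF1G a run of C and T begins on the next base. A run of 0 therefore does not show that an mRNA lacks the motif. A C at the start with at least 4 further C or T bases was held by 1429 of 35116 promoters (4.07%) and by 48 of 85 ribosomal protein promoters (56.5%), read on the gene's strand only. The match describes the annotated start and says nothing about the start used in these cells. Promoter entries were matched for 6 of the 8 members, and EEF1A2 and EEF1D had none.

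EEF2 (ENSG00000167658; chr19:3976056-3985469, minus strand) measured 2815, 2305 and 2070 CPM in siControl and 2453, 2657 and 2259 CPM in siDAB2IP libraries. All siDAB2IP values lay within the siControl range. The log2 fold change was 0.04 (SE 0.15, 95% interval −0.29 to 0.36). Within the replicate numbers the log2 ratio was −0.20, 0.21 and 0.13, with both signs present.

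EEF1B2 and EEF1D encode subunits of the exchange factor that returns EEF1A to its GTP-bound form. EEF1B2 (ENSG00000114942; chr2:206159585-206162928, plus strand) measured 342, 333 and 294 CPM in siControl and 366, 352 and 324 CPM in siDAB2IP libraries, with a log2 fold change of 0.10 (SE 0.11, 95% interval −0.14 to 0.34). EEF1D (ENSG00000104529; chr8:143579697-143599541, minus strand) measured 252, 244 and 274 CPM in siControl and 260, 276 and 304 CPM in siDAB2IP libraries, with a log2 fold change of 0.13 (SE 0.10, 95% interval −0.11 to 0.36). For both subunits the siDAB2IP library was above the siControl library of the same number in all 3 pairs, by 0.08 to 0.14 for EEF1B2 and 0.04 to 0.18 for EEF1D on the log2 scale. The groups as a whole overlapped, and both intervals include 0. As for EEF1A1, EEF1B2 counts can be shared with copies: 59.4% of its 50-base stretches occurred in its pseudogenes. Those 8 pseudogenes together held 0.598% to 0.860% as many counts as EEF1B2. Other genes share 17.4% of the EEF1B2 exon bases. Genes on the opposite strand share 34.0% of the EEF1D exon bases, and reads of the 2 strands cannot be told apart unless counting used strand, which is not stated.

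EEF1G (ENSG00000254772; chr11:62559601-62574086, minus strand), the structural subunit of the exchange factor, had 0 counts in all 6 libraries and was not tested. Of its 2716 exon bases, 2714 (99.9%) are shared with AP002990.1, a protein-coding annotation on the same strand. AP002990.1 held 20, 34 and 38 counts in siControl and 16, 16 and 18 counts in siDAB2IP libraries. The EEF1G count therefore does not measure the transcript, and its level is not given.

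EEF1E1 (ENSG00000124802; chr6:8073360-8102578, minus strand), also known as AIMP3 or p18, is a scaffold of the multi-tRNA synthetase complex rather than a factor of the elongation cycle. Its counts were 81, 115 and 86 in siControl and 63, 81 and 68 in siDAB2IP libraries, or 5.05, 5.34 and 5.05 CPM against 3.55, 4.49 and 3.94 CPM. Every siDAB2IP library was below every siControl library. The log2 fold change was −0.37 (SE 0.19), and its 95% interval of −0.79 to 0.06 includes 0. The readthrough gene EEF1E1-BLOC1S5, with 0 counts in all 6 libraries, shares 393 exon bases with it, which are 36.5% of its 1077-base principal transcript.

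EEF2K (ENSG00000103319; chr16:22206282-22288732, plus strand), the kinase of EEF2, measured 91.7, 75.8 and 80.1 CPM in siControl and 73.1, 72.4 and 77.6 CPM in siDAB2IP libraries. The siDAB2IP replicates 1 and 2 lay below the siControl range, and siDAB2IP replicate 3 lay within it, above siControl replicate 2. The log2 fold change was −0.15 (SE 0.10, 95% interval −0.37 to 0.07). Within the replicate numbers the log2 ratio was −0.33, −0.07 and −0.05, and without siControl replicate 1 the log2 fold change was −0.09.

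**Figure D3:**
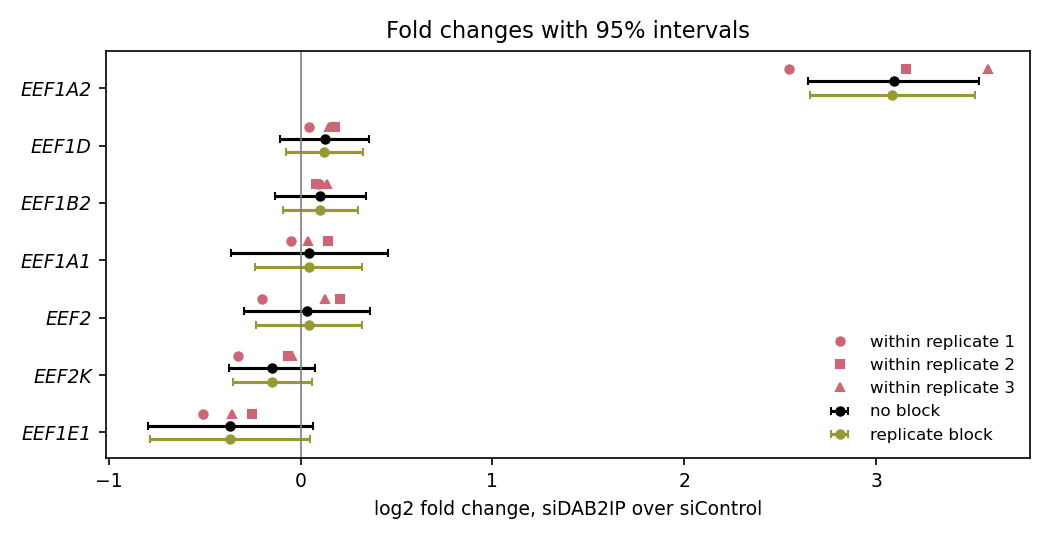
Log2 fold change of siDAB2IP over siControl for the 7 tested members, with 95% intervals from the fit without (black) and with (olive) a replicate block, and the ratio within each replicate number as small markers. EEF1A2 stands at 3.09, and the other 6 lie between −0.37 and 0.13 with intervals that include 0.

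Ordered by mean FPKM in siControl cells, the members ran EEF1A1 (1030), EEF2 (590), EEF1B2 (167), EEF1D (27.1), EEF2K (10.2), EEF1E1 (2.42) and EEF1A2 (0.999), and the libraries of no neighboring genes in this order overlapped. In siDAB2IP cells EEF1A2 passed EEF1E1. EEF1A2 then stood at 7.41 to 10.3 FPKM beside EEF2K at 8.92 to 9.56 FPKM, the only neighbors whose libraries overlapped. FPKM divides by 4910 exon bases for EEF1A2 and 8020 for EEF2K, while their principal transcripts have 2014 and 7388 bases. The order of EEF1A2 and EEF2K in siDAB2IP cells therefore depends on the length used. EEF1E1 came last of the counted members, with 1.87 ± 0.218 FPKM. The median log2 fold change of the 7 tested members was 0.04, and that of all genes tested was 0.01.

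The genes that work with or modify the elongation factors were read from lists of translation genes. The 6 lists of partners, mitochondrial factors, initiation, termination, tRNA synthetases and EEF2K regulators held 126 genes, of which 125 were tested, 4 rose (3.20%, beside 6.55% of all genes) and 5 fell (4%, beside 7.65%). Their median log2 fold change was 0.04, and the largest increase was 0.57, for DPH3, against 3.09 for EEF1A2. The largest decrease was that of CDK1, with a log2 fold change of −1.21. Adjusted p-values below are from edgeR's quasi-likelihood test with Benjamini-Hochberg adjustment over all genes tested. In the fit blocked on replicate number, 1479 of all 15430 genes rose and 1754 fell, to be read beside the block counts below. DESeq2, given 29567 genes, called 1108 that rose and 1375 that fell, to be read beside its counts. At an unadjusted p under 0.05 no share over all genes was taken, and nothing is read from those counts.

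Of 25 elongation partners and modifying enzymes, 2 rose (8%, beside 6.55% of all genes) and 0 fell (beside 7.65%). At an unadjusted p under 0.05 there were 7 higher and 0 lower, without a share over all genes to set beside them. In DESeq2 3 rose and 0 fell, beside 1108 and 1375 of 29567 genes. PELO, which rescues stalled ribosomes, rose from 20.8 ± 2.43 to 28.1 ± 1.25 CPM (log2 fold change 0.43, SE 0.13, adjusted p = 0.0454). DPH2, an enzyme of the diphthamide modification of EEF2, rose from 39.7 ± 1.02 to 56.5 ± 5.35 CPM (log2 fold change 0.51, SE 0.10, adjusted p = 0.0121). In the fit blocked on replicate number 4 rose, the further ones being METTL13, a methyltransferase of EEF1A, and DPH3. EIF5A, which aids peptide bond formation at proline stretches, was 359 CPM in siControl and 362 CPM in siDAB2IP cells, and VARS, the valyl-tRNA synthetase that associates with the exchange factor, was 244 and 290 CPM (adjusted p = 0.119). Neither PELO nor DPH2 passed without siControl replicate 1 or without siControl replicate 2.

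All 5 mitochondrial elongation factors were tested and 0 passed in edgeR or DESeq2. At an unadjusted p under 0.05 there were 3, all higher, again without a share over all genes. Their log2 fold changes were positive for all 5, the median being 0.27, and TUFM, the mitochondrial counterpart of EEF1A, was 354 ± 35.7 CPM in siControl and 430 ± 46.8 CPM in siDAB2IP cells (adjusted p = 0.156).

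Regulators of EEF2K had 1 gene that rose (5%, beside 6.55% of all genes) and 3 that fell (15%, beside 7.65%) of 20 tested. PRKAB2, a subunit of AMP-activated kinase, which activates EEF2K, rose by 0.48 on the log2 scale (adjusted p = 0.0419). The call was lost in both limma fits, with at least 10 counts required in every library, and without siControl replicate 2, siControl replicate 3 or siDAB2IP replicate 1. CALM2, one of the calmodulin genes, fell by 0.47 (adjusted p = 0.0168), and BTRC, the ubiquitin ligase subunit that marks EEF2K for degradation, fell by 0.79 (adjusted p = 0.00998). CDK1, a cell cycle kinase that phosphorylates EEF2K, fell by 1.21 (SE 0.33, adjusted p = 0.0365), and its adjusted p was 0.0598 in DESeq2. With the replicate block 2 rose and 4 fell, and 1 of the 4 calls was left without siControl replicate 2 or siDAB2IP replicate 1.

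Among 49 initiation factors, 1 rose (2.04%, beside 6.55% of all genes) and 2 fell (4.08%, beside 7.65%). With the replicate block 3 rose and 2 fell. EIF2B1, a subunit of the exchange factor of EIF2, rose from 45.3 ± 3.07 to 62.7 ± 6.65 CPM (adjusted p = 0.0205), a call that was lost without siControl replicate 1, 2 or 3 in turn. PDCD4, which holds back the helicase EIF4A, fell from 193 ± 22.2 to 120 ± 13.0 CPM (log2 fold change −0.69, SE 0.12, adjusted p = 0.00647). EIF4G2, a relative of the scaffold EIF4G1, fell from 675 ± 46.7 to 498 ± 28.7 CPM (adjusted p = 0.0271). Without siControl replicate 2, siControl replicate 3 or siDAB2IP replicate 1 in turn, 1 initiation factor fell rather than 2.

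The list of cytosolic tRNA synthetases, the enzymes that charge the tRNA carried by EEF1A, held 21 tested genes. These include AIMP1 and AIMP2, which are scaffolds of the multi-tRNA synthetase complex and not synthetases. In the list 0 passed in edgeR and 0 in DESeq2. At an unadjusted p under 0.05 there were 2 higher and 1 lower, without a share over all genes. AARS and CARS rose and DARS fell in the blocked fit. Of 5 tested termination and recycling factors 0 passed in edgeR, at an unadjusted p under 0.05 or in DESeq2, and ETF1, the release factor, was 191 ± 11.6 CPM in siControl and 197 ± 17.7 CPM in siDAB2IP cells.

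Of 85 tested ribosomal protein genes, many with the pyrimidine start described for EEF1A1 and EEF2, 0 rose (beside 6.55% of all genes) and 1 fell (1.18%, beside 7.65%). At an unadjusted p under 0.05 there were 1 higher and 2 lower, without a share over all genes, and in DESeq2 0 and 1. Their log2 fold changes had a median of 0.07. The gene that fell was RPS25, from 469 ± 53.2 to 239 ± 22.2 CPM (log2 fold change −0.97, SE 0.12, adjusted p = 0.00171). The replicate block added RPL22 as lower.

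**Figure D4:**
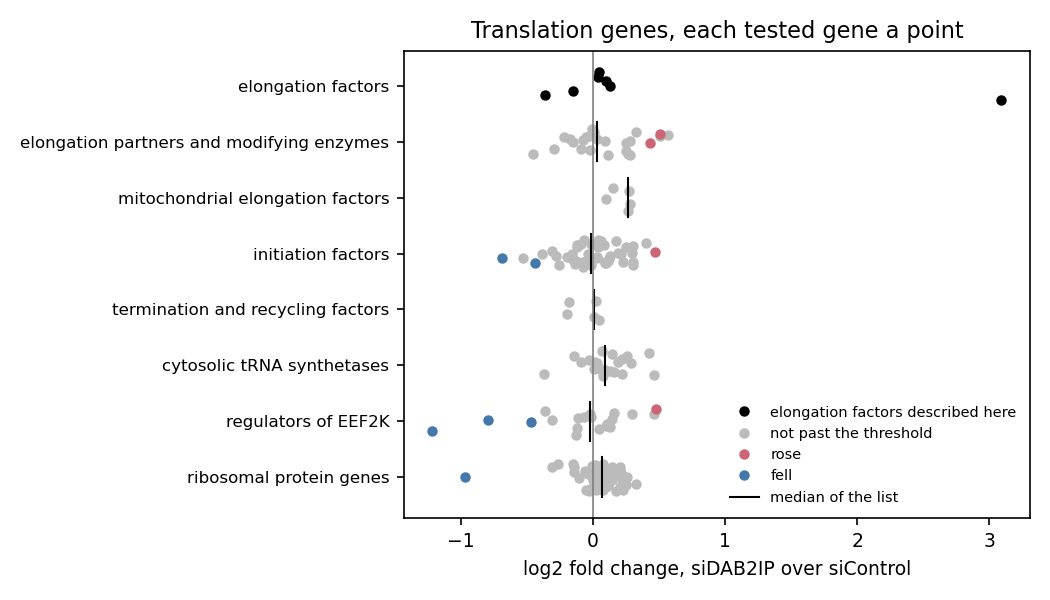
Log2 fold change of siDAB2IP over siControl for each tested gene of the elongation factor group (black points, with EEF1A2 at 3.09) and of 7 lists of translation genes, where red points rose, blue points fell and grey points did not pass the test, and the black line is the median of the list. The list medians lie between −0.02 and 0.27.

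The chromosomal neighborhood of EEF1A2 was examined next. In all, 35 other genes reach within 250 kb of it, of which 17 were tested, 16 upstream and 1 downstream of its start. Of these, 2 rose (11.8%, beside 6.55% of all genes) and 0 fell (beside 7.65%). At an unadjusted p under 0.05 there were 4 higher and 1 lower, without a share over all genes to set beside them, and in DESeq2 2 and 0. With the replicate block 4 of the 17 rose and 0 fell, where 1479 rose and 1754 fell of all 15430 genes. SRMS, a nonreceptor tyrosine kinase whose start lies 48.2 kb upstream, rose from 3.21 ± 0.467 to 5.43 ± 0.594 CPM (log2 fold change 0.75, SE 0.21, adjusted p = 0.0404). RTEL1-TNFRSF6B, a readthrough gene that overlaps RTEL1, 160 kb upstream, rose from 9.98 ± 1.45 to 16.6 ± 3.04 CPM (log2 fold change 0.74, adjusted p = 0.0235). The further genes with the block were PTK6, the breast tumor kinase gene, 38.0 kb upstream (7.54 ± 1.27 and 11.3 ± 2.16 CPM, adjusted p = 0.0739, with the block 0.0282), and ARFGAP1, 227 kb downstream (152 ± 6.38 and 193 ± 29.4 CPM, adjusted p = 0.0791, with the block 0.0330). PPDPF, the nearest tested gene, starts 21.4 kb upstream and was 37.9 ± 1.87 and 32.5 ± 4.04 CPM (adjusted p = 0.246). The other 12 tested neighbors, ARFRP1, GMEB2, SLC2A4RG, FNDC11, ZBTB46, HELZ2, ZGPAT, STMN3, LIME1, MHENCR, RTEL1 and AL121845.3, had log2 fold changes between −0.32 and 0.30, and none passed in either fit. The median over the 17 was 0.23, and 0 of them passed without siControl replicate 1 or without siControl replicate 2.

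**Figure D5:**
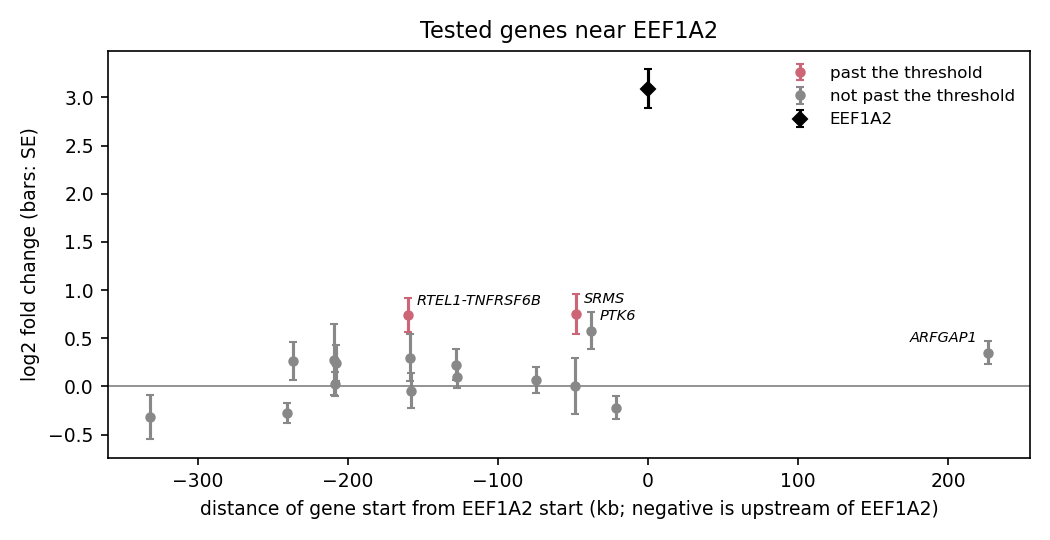
Log2 fold change with SE of the 17 tested genes that reach within 250 kb of EEF1A2 against the distance of their start from the EEF1A2 start in kb, negative values being upstream. EEF1A2 (black diamond) stands at 3.09, and the genes past the threshold, SRMS and RTEL1-TNFRSF6B (red), stand at 0.75 and 0.74.

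Since EEF1A2 is known from neurons and striated muscle, markers of those cells were read beside it. Of 6 neuron markers, SNAP25 and GAP43 were at 0 in all 6 libraries, and the summed level was 3.90 to 4.67 CPM in siControl and 4.17 to 11.8 CPM in siDAB2IP libraries. SYP, the synaptic vesicle protein synaptophysin, rose from 1.06, 1.07 and 1.41 CPM to 2.14, 2.05 and 5.74 CPM (log2 fold change 1.48, SE 0.43, adjusted p = 0.0458). RBFOX3, the other tested marker, was 3.43, 2.23 and 2.70 CPM in siControl and 1.97, 1.94 and 5.80 CPM in siDAB2IP libraries (adjusted p = 0.773). For both genes siDAB2IP replicate 3 was the highest library. Thus 1 of 2 tested neuron markers rose, beside 6.55% of all genes tested. SYT1 and NEFL, not tested, had means of 0.315 and 0.066 CPM in siControl and 0.245 and 0.018 CPM in siDAB2IP cells. Of 7 striated muscle markers, MYH7 and MYH2 were at 0 in all libraries, the summed level was at most 1.28 CPM in any library, and 0 were tested. Of 6 fibroblast markers none was at 0 in all libraries, but COL1A2, COL3A1 and PDGFRA held at most 4 counts in any library and were not tested. The summed level of the 6 was 163 to 293 CPM in siControl and 146 to 205 CPM in siDAB2IP libraries. Most of it was DCN, at 201 ± 65.9 CPM in siControl and 143 ± 25.8 CPM in siDAB2IP cells. Of 3 tested, 1 rose, beside 6.55% of all genes tested: COL1A1, by 0.78 on the log2 scale (adjusted p = 0.0129). The others, DCN and PDGFRB, had log2 fold changes of −0.49 and −0.61 (adjusted p = 0.151 and 0.476). DCN fell in the blocked fit (adjusted p = 0.0247), where 1754 of all 15430 genes fell. The part of these cell markers in the EEF1A2 difference was not tested, and in bulk RNA more cells of a type and more RNA per cell cannot be told apart.

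The genes with a pattern across the 6 libraries most like that of EEF1A2 were found by Pearson's r of log2 CPM among 14074 other tested genes with a mean of at least 1 CPM. They were EAF1, GLMP, CLCN7 and QSOX1, each with r = 0.998, and HES2, with r = 0.996. EAF1 measured 16.4, 15.2 and 15.2 CPM in siControl and 22.1, 22.9 and 24.4 CPM in siDAB2IP libraries, a log2 fold change of 0.57, so its shape was like that of EEF1A2 at a far smaller size. QSOX1 had the largest log2 fold change of the 5, 0.83. The 6 points fall into the 2 groups, so r mainly reflects that separation, and 973 genes had an r of at least 0.9. Of the members, r with EEF1A2 was 0.09 for EEF1A1, 0.21 for EEF2, 0.51 for EEF1B2, 0.64 for EEF1D, −0.53 for EEF2K and −0.87 for EEF1E1.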

How the data were processed

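The 6 RNA-Seq libraries of MCF10A cells were made and sequenced by Novogene. Per the labels, the submitters' processing notes list STAR 2.6.1d, featureCounts 1.5.0-p3, hg38, DESeq2 1.20.0 and edgeR 3.24.3, without their settings; whether counting used strand is not given in the sources used here. The authors deposited whole-number counts per gene, without normalization, and FPKM values, in which the deposited count is divided by gene length and by a scaled library total (98.9% to 104.7% of the total count). Start, end, strand and exon length of all 58735 genes equal those of GENCODE 29. Columns of per-sample values belonging to no sample numbered 0.

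The main test was edgeR 4.0.16 in R 4.3.3 (genes kept by filterByExpr with the group given, TMM, glmQLFit and glmQLFTest, Benjamini-Hochberg adjustment over 15430 genes, without a block), and the code was tested on simulated data. CPM values are TMM-normalized. Standard errors come from the F statistic. Genes named are DAB2IP, the elongation factors, tested pseudogenes and neighbors, markers, up to 4 called genes in each direction per list, the most abundant uncalled ones, the genes METTL13, DPH3, AARS, CARS, DARS and RPL22 called with the block, chosen after their values were seen, and the 5 most like EEF1A2. The members and lists were chosen with earlier results of these data known. The labels number replicates 1 to 3 in both groups without stating separate cultures or a shared day, so p-values measure the spread among these libraries. Deviations from the group means correlated at 0.26, 0.15 and 0.25 between same-numbered libraries and at −0.28 to 0.02 between others. The numbers were therefore taken as pairs in the blocked fit and the ratios within replicate numbers, not in the main fit. Deviations within a group cancel by construction, so negative values between others accompany positive ones, and the pairing was not tested. Alternatives used DESeq2 1.42.0, limma 3.58.1, other scaling, filters and thresholds, and each library left out.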

Additional observations from a re-analysis of the deposited data

How the results depend on the processing

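The EEF1A2 log2 fold change, on which the members were chosen, was 2.93 to 3.27 on leaving out a library and 2.24 in limma on log2(FPKM + 1), where the pseudocount shrinks low genes. Its share of EEF1A was 0.0914% to 0.106% in siControl and 0.644% to 0.925% in siDAB2IP cells without a library. EEF1A1 and EEF2 kept their sign in 12 of 15 alternatives, and EEF1E1 in all 15. Called genes numbered 1417 with limma on log2(FPKM + 0.1), 622 at an adjusted p under 0.01, 610 with a log2 fold change of at least 1 added, and 723 (without siControl replicate 2) to 2524 (without siDAB2IP replicate 3) on leaving out a library, with 1186 without siControl replicate 1 and 1048 without siControl replicate 3. The replicate block gave 3233 called genes. In the lists it gave 4 elongation partners, 5 initiation factors, 3 synthetases, 2 ribosomal protein genes and 4 neighbors, and it gave EEF1A2 a log2 fold change of 3.08. At an adjusted p under 0.01 the counts were 0 partners, 1 initiation factor, 1 EEF2K regulator and 0 neighbors, and with the fold added 0 partners, 0 initiation factors, 1 regulator, 0 ribosomal protein genes and 0 neighbors. Both limma fits called 2 EEF2K regulators and 1 neighbor, and the fit without a filter called 3 synthetases. Without a library the counts were 0 to 2 partners, 0 to 1 mitochondrial factor, 1 to 5 initiation factors, 0 to 1 synthetase, 1 to 4 regulators and 0 to 2 neighbors. The lowest counts of partners and neighbors came without siControl replicate 1 or 2 (1 each without siControl replicate 3, siDAB2IP replicate 1 or siDAB2IP replicate 2), of initiation factors without siControl replicate 2 or 3 (2 without siControl replicate 1 or siDAB2IP replicate 1), and of regulators without siControl replicate 2 or siDAB2IP replicate 1 (2 without siControl replicate 3). Without siDAB2IP replicate 3 the counts were 2 partners, 5 initiation factors, 4 regulators and 2 neighbors. Stricter thresholds and fewer libraries make fewer calls by construction, and the cause of the other moves was not tested. With the length of the principal transcript, an alternative chosen after seeing the data, the EEF1A2 share was 0.0917% and 0.782%. With 3 libraries per group, members with few counts such as EEF1E1 (63 to 115) have wide intervals.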
